A study of Mus musculus with 4 samples.

Results

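A total of 8 names of nuclear and neural long noncoding RNAs were looked up in the gene table of cultured mouse neural stem/progenitor cells (NSCs): Malat1, Neat1, Miat, Sox2ot, Rmst, Pantr1, Tug1 and Pvt1. Of these 8 names, 7 had a row among the 18169 rows of the table, each with 1 row, and all 7 were kept. Neat1 had no row under that name or under its 2 listed synonyms and is not analysed here. The rule takes the members by name, and no measured value enters it. Messenger RNA was sequenced from primary NSCs of wild-type (+/+, n = 2) and Chd5-deficient (Chd5-/-, n = 2) mice, all of the C57BL/6 strain. Chd5 encodes a chromatin remodeler of the CHD family. All 4 cultures came from the periventricular brain of newborn mice, ventricular and subventricular zones included, and grew in medium with epidermal growth factor and fibroblast growth factor 2. Nothing else distinguished the groups in the labels except age: the growth protocol gives postnatal day 1 for every animal, whereas the age labels read postnatal day 1 and 2 for the +/+ samples and 3 and 4 for the Chd5-/- samples. Taken literally, the age labels cannot be told apart from genotype. The protocol speaks of individual newborns, so that the samples of a group are read as separate cultures. Nothing else marks them as biological replicates, and if they were not, the p-values would measure a technical spread.

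Long noncoding RNAs are transcripts, usually made by RNA polymerase II, that are not known to be read into a long protein. Malat1 is one of the most abundant of them in mammalian nuclei, where it lies in nuclear speckles, the compartments rich in splicing factors. Neat1 is the scaffold of paraspeckles, a neighbouring kind of nuclear body. Several others are known from the brain: Miat (Gomafu) is a nuclear RNA of retina, neurons and oligodendrocyte lineage cells, Sox2ot is a multi-exon transcript with the gene of the stem cell factor Sox2 inside it, Rmst binds SOX2 and takes part in neuronal differentiation, and Pantr1 is transcribed next to the neural transcription factor gene Pou3f3. Tug1 is a broadly expressed RNA first described in the retina, and Pvt1 is the long noncoding neighbour of the proto-oncogene Myc.

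The libraries were made with a stranded mRNA kit, which selects RNA by its poly(A) tail, so the 3′ ends of the members bear on whether such a library can hold them. The last 60 bases of the RefSeq-linked transcript of each of the 7 members are shown 5′ to 3′ on the strand of the gene, with every AATAAA or ATTAAA, the 2 most common poly(A) signals, in capitals. The sequences are from GRCm38.
Malat1: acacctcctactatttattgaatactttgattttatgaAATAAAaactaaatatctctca
Miat: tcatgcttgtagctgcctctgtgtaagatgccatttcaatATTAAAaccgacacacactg
Sox2ot: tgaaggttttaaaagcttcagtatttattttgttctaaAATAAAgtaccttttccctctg
Rmst: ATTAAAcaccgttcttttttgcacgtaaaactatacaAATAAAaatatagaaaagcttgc
Pantr1: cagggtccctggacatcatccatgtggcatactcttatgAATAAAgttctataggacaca
Tug1: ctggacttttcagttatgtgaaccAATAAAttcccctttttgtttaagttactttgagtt
Pvt1: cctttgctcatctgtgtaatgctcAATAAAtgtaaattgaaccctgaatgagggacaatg
They lie at chr19:5795690-5795749 (Malat1, minus strand), chr5:112213230-112213289 (Miat, minus), chr3:34677934-34677993 (Sox2ot, plus), chr10:92081746-92081805 (Rmst, minus), chr1:42648200-42648259 (Pantr1, minus), chr11:3639785-3639844 (Tug1, minus) and chr15:62249465-62249524 (Pvt1, plus). AATAAA was present in 6 of the 7 ends, and Miat alone held only ATTAAA. The signal nearest to the annotated end began between 20 and 23 bases from it in Malat1, Miat, Sox2ot, Rmst and Pantr1 and 36 bases from it in Tug1 and Pvt1. Having such letters is common: over the same window of the transcript strand, AATAAA was found in 51.0% of 2016 long noncoding genes and in 60.2% of 20598 protein-coding genes, and either motif in 65.7% and 73.5%.

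Malat1 is a special case, because its abundant nuclear form is not polyadenylated. Background knowledge has it cut by RNase P ahead of a tRNA-like stretch, and the new end, a short genomic run of A, folds into a triple helix that protects it. The longest run of A in the annotated transcript is shown in capitals with 80 bases before and 60 after it (chr19:5795928-5796079, minus strand).
Malat1 A run: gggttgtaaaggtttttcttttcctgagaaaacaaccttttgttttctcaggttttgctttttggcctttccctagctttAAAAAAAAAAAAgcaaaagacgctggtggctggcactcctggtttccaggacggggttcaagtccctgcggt
The run held 12 A, at bases 6674 to 6685 of 6983, and 298 bases followed it to the annotated end. Oligo(dT) pairs with runs of A, and whether it caught the processed form, a polyadenylated form ending at the annotated end or both was not tested. The gene table does not tell these forms apart, so the levels of Malat1 given here are those of the RNA that passed poly(A) selection.

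The 7 genes differ widely in build. Malat1 (chr19:5795690-5802672) is a single exon of 6983 nt, and Tug1 (chr11:3639785-3649673) has 2 exons and 6719 nt. Miat (chr5:112213228-112229395) has 7 exons and 8758 nt. The others are short RNAs spliced from long genes: Sox2ot (chr3:34104270-34682619; 5 exons, 2970 nt), Rmst (chr10:92071037-92165170; 13 exons, 2679 nt), Pantr1 (chr1:42590782-42694842; 4 exons, 546 nt) and Pvt1 (chr15:62037986-62378096; 9 exons, 1563 nt). Exon counts and lengths are those of the RefSeq-linked transcript in GRCm38. Exons of Tug1 overlap those of Morc2a on the other strand, and exons of Pvt1 overlap H2afy3, also on the other strand. Exons of Malat1, Miat, Rmst, Tug1 and Pvt1 overlap unnamed gene models. Exons of Sox2ot overlap Mir1897 and unnamed models on the same strand. Whether reads were counted by strand is not given in the sources used here, so those values may hold reads of the partner gene. Where the partner lies on the same strand, counting by strand would not separate the reads. Pantr1 has no such overlap.

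Values are in TPM, a length-normalised measure of transcript abundance. Reads are divided by transcript length and scaled to the same sum in every sample. Levels of different genes can thus be set side by side only as far as the lengths used fit the transcripts present, and those lengths are not given. For Pantr1 the RefSeq-linked transcript has 546 nt and the longest annotated one 2085 nt. For Pvt1 they have 1563 and 3319 nt. TPM keeps no read depth, and no counting error can be given. The library sums were equal by construction, but the 20 most abundant rows held 32.4% and 35.6% of TPM in +/+ and 21.6% and 22.8% in Chd5-/-, so that a larger share was left for all other rows in Chd5-/-. Chd5 itself was at 0.39 and 0.37 TPM in +/+ and at 0.06 and 0.04 TPM in Chd5-/-, in the direction of the labels, at levels too low for the test. Stem cell markers were abundant in all 4 samples (Fabp7 1939 to 5892 TPM, Vim 1068 to 1502 TPM, Sox2 201 to 442 TPM). Summed markers of microglia stayed between 0.32 and 0.75 TPM and those of endothelial cells between 1.17 and 19.6 TPM. The Chd5-/- replicate 1 sample stood apart by its summed mesenchymal markers, 410 TPM against 2.9 to 16.9 TPM in the others, and by the lowest sum of stem cell markers, 4046 TPM against 7054 to 9969 TPM. Thy1 alone made up 388 TPM of its mesenchymal sum. In this sample Acta2, Col3a1 and Dcn were at 4.17 to 9.55 TPM, and Col1a1, Col1a2, Lum and Pdgfrb at 0 to 0.37 TPM. The sum is thus mostly 1 gene, and whether this sample held other cells was not tested. Values without it are given where leaving it out changed a call or moved a value most.

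The members fell into 4 well-expressed RNAs and 3 that were low or nearly absent. By TPM, Pantr1 was the most abundant, followed by Malat1, Tug1 and Pvt1, all above 40 TPM in every sample. Sox2ot was intermediate and variable, Miat was near or below 4 TPM, and Rmst was listed at 0 in 3 of 4 samples. The order Pantr1, Malat1, Tug1, Pvt1, Sox2ot, Miat, Rmst was the same in 4 of 4 samples among the members above 0. Whether this order rests on the transcript lengths used for TPM was not tested.

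**Figure D1:**
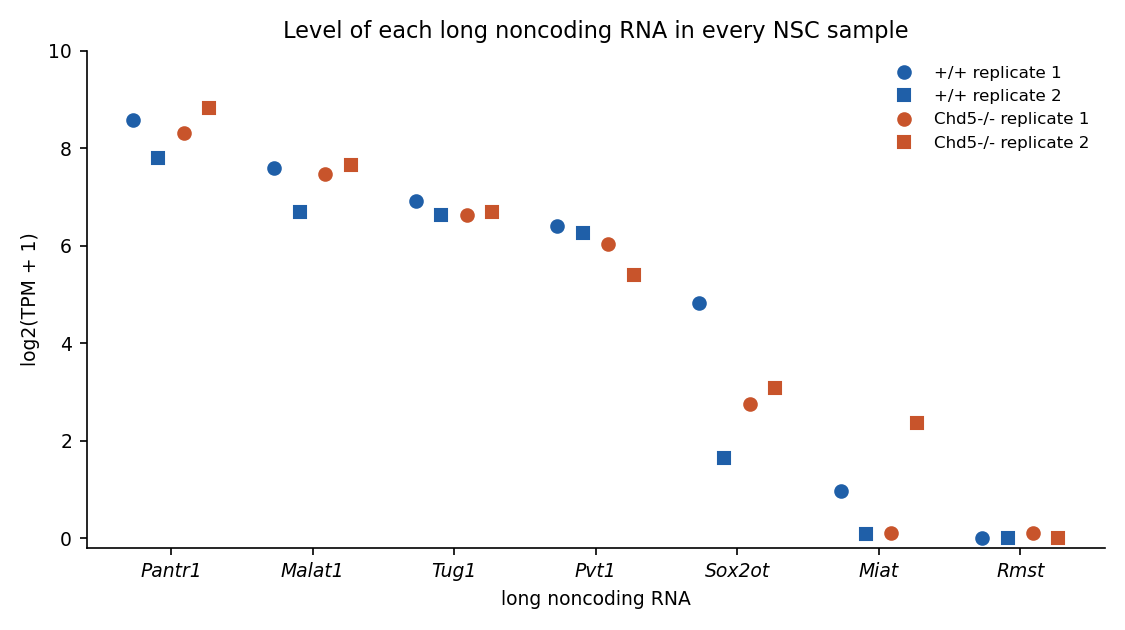
Level of each long noncoding RNA, as log2(TPM + 1), in the 4 NSC samples, with circles for replicate 1 and squares for replicate 2 of +/+ (blue) and Chd5-/- (red). Pantr1, Malat1, Tug1 and Pvt1 lie above the other members in every sample, and the samples of 1 genotype lie far apart for Sox2ot (+/+) and Miat (Chd5-/-).

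Between neighbours in this order, some levels were separate and others overlapped. Every sample of Pantr1 lay above every sample of Malat1, every sample of Tug1 above every sample of Pvt1, and every sample of Pvt1 above every sample of Sox2ot. The ranges of Malat1 and Tug1 overlapped, as did those of Sox2ot and Miat. Together the 7 members made up 806 and 501 TPM in +/+ and 662 and 809 TPM in Chd5-/-, that is 0.0501% to 0.0809% of all TPM.

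Pantr1, transcribed away from Pou3f3 on the other strand, was measured at 383 and 223 TPM in +/+ and at 316 and 453 TPM in Chd5-/-. The highest and the lowest sample belonged to different genotypes, and the groups overlapped. The means were 303 ± 113 TPM in +/+ and 385 ± 96.9 TPM in Chd5-/- (SD, n = 2 each). The log2 fold change, here always Chd5-/- minus +/+ in log2(TPM + 1), was 0.37 (SE 0.36, 95% interval -0.53 to 1.28, limma adjusted p = 0.549). A difference of this size was within the spread between the +/+ replicates, which were 0.78 apart on the log2 scale, more than 92.2% of the rows tested.

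Malat1 was measured at 192 and 102 TPM in +/+ and at 177 and 201 TPM in Chd5-/- samples. Only the +/+ replicate 2 sample was low, and the other 3 samples were close together. The means were 147 ± 63.6 TPM and 189 ± 16.4 TPM (SD, n = 2 each), with a log2 fold change of 0.43 (SE 0.35, 95% interval -0.46 to 1.32, limma adjusted p = 0.485). The +/+ replicates were 0.90 apart on the log2 scale, more than in 94.6% of rows, and the Chd5-/- replicates 0.18 apart. Without the +/+ replicate 2 sample the log2 fold change of Malat1 was -0.02, so the sign of its difference rested on that sample.

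Pantr1 and Malat1 were high and low in the same samples. The ratio of Pantr1 to Malat1 TPM was 1.995 and 2.19 in +/+ and 1.78 and 2.26 in Chd5-/-, and the highest ratio was 1.27 times the lowest, the narrowest range of the 15 pairs of tested members. For Malat1 over Tug1 the ratio went from 1.05 to 1.97, and for Pantr1 over Pvt1 from 2.96 to 10.97. With 4 samples this is a description, and the ratio bears no test.

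Tug1 was the steadiest member, at 119 and 97.7 TPM in +/+ and at 98.1 and 102 TPM in Chd5-/- samples. A single +/+ sample was slightly above the other 3, and the groups overlapped. The log2 fold change was -0.11 (SE 0.22, 95% interval -0.67 to 0.45, limma adjusted p = 0.780). The Chd5-/- replicates were 0.05 apart on the log2 scale, less than in all but 7.36% of rows. The interval bounds the difference between the genotypes at 0.67 in either direction on this scale, narrower than for any other member tested.

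Pvt1 was the only tested member without overlap between the genotypes. It was measured at 83.8 and 75.5 TPM in +/+ and at 64.5 and 41.3 TPM in Chd5-/- samples, so that both Chd5-/- samples lay below both +/+ samples. The means were 79.6 ± 5.88 TPM and 52.9 ± 16.4 TPM (SD, n = 2 each), and the log2 fold change was -0.61 (SE 0.29, 95% interval -1.34 to 0.12, limma unadjusted p = 0.0835, adjusted p = 0.261). A lower log2 fold change was found in 4.73% of the rows tested, and both Chd5-/- samples below both +/+ samples in 13.0% of them. In the 17 alternative fits, the log2 fold change of Pvt1 lay between -1.02 and -0.30. Its sign was at risk in few of them. Fits that change only the minimum, block or variance model return the same estimate. Without overlap between the groups, another pseudocount or leaving out 1 sample cannot reverse the sign. It was -1.02 with median-of-ratios scaling, -0.76 with quantile normalization, -0.85 when rescaled without the 20 most abundant rows and -0.76 after removal of G+C and length trends. In 16 of the 17 fits Pvt1 did not pass the test. In the fit without Chd5-/- replicate 1, the sample with the high mesenchymal sum, it was -0.93 with limma adjusted p = 0.0493, a fit that called 1247 rows in all. This fit rests on 1 Chd5-/- sample, the one with the lowest Pvt1 level, whose spread is borrowed from the +/+ samples.

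On the log2(TPM + 1) scale, Sox2ot showed the largest difference of any member between samples of 1 genotype. It was measured at 27.5 and 2.12 TPM in +/+, 13.0-fold apart, and at 5.78 and 7.45 TPM in Chd5-/-. Both Chd5-/- samples lay between the +/+ samples. The distance between the +/+ replicates, 3.19 on the log2 scale, was larger than in 99.8% of the rows tested. The log2 fold change of -0.32 (SE 1.03, 95% interval -2.92 to 2.29, limma adjusted p = 0.867) therefore bounds the genotype difference poorly, and without +/+ replicate 1 it was 1.28.

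Miat was at 0.94 and 0.06 TPM in +/+ and at 0.08 and 4.12 TPM in Chd5-/- samples. A single sample, Chd5-/- replicate 2, was above 1 TPM, and Miat reached the minimum mean of 1 TPM through that sample alone. The Chd5-/- replicates were 51.5-fold apart, a log2 difference of 2.25 that exceeded 96.9% of rows. The log2 fold change was 0.71 (SE 0.82, 95% interval -1.38 to 2.80, limma adjusted p = 0.616), and without that sample -0.41. Rmst was listed at 0 in both +/+ samples and in Chd5-/- replicate 2, and at 0.07 TPM in Chd5-/- replicate 1, and was not tested.

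**Figure D2:**
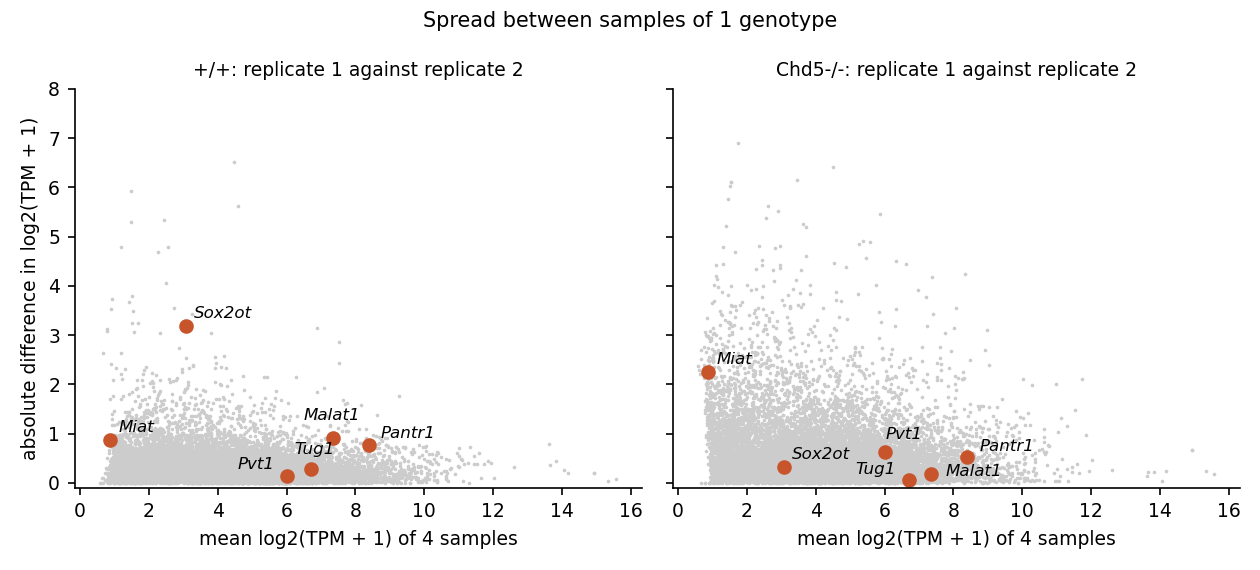
Absolute difference in log2(TPM + 1) between the replicates of 1 genotype (y axis) against the mean log2(TPM + 1) of the 4 samples (x axis), for +/+ (left) and Chd5-/- (right), with each tested row in grey and the members in red. Sox2ot lies at 3.19 in +/+ and Miat at 2.25 in Chd5-/-, above most rows, and Tug1 at 0.05 in Chd5-/-.

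Between the genotypes, no member passed the test. Of the 6 members tested, 0 had a limma adjusted p under 0.05, against 0.0557% of all rows tested (7 of 12576; 0.0318% higher and 0.0239% lower in Chd5-/-). At an unadjusted p under 0.05 the count was also 0, against 24.1% of all rows (21.9% higher and 2.27% lower in Chd5-/-). Of the 6, 5 overlapped between the genotypes, 1 was below and 0 were above, where 13.0% of all rows were below and 46.3% above, 59.4% in all. The replicates of 1 genotype were a median of 0.82 apart on the log2 scale over the members in +/+ and 0.42 in Chd5-/-, beside 0.25 and 0.40 over all rows. The median log2 fold change was 0.13 over the members tested and 0.34 over all rows tested. In simulated rows, limma at an adjusted p under 0.05 called 0 of 50 with an absolute log2 change of 1 and 7 of 50 with 2. A count of 0 calls therefore says little about changes of that size, here and for the lists that follow. With 2 samples against 2, an exact permutation test of a single gene cannot give a two-sided p under 0.333, and the intervals above are the measure of what these samples can show.

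The scale used mattered for the direction of the differences. With median-of-ratios scaling the median of all rows went from 0.34 to -0.03, and the median of the members from 0.13 to -0.28. Pantr1 then had a log2 fold change of -0.04, Malat1 0.02, Tug1 -0.52 and Pvt1 -1.02, with limma adjusted p-values of 0.946, 0.981, 0.215 and 0.189. At an unadjusted p under 0.05, Pvt1 and Tug1 were then called. Relative to the shift of all rows, the members' median was 0.21 lower on the deposited scale and 0.25 lower after median-of-ratios scaling, and 0.07 higher after quantile normalization. Leaving out 1 sample moved this value further, from 0.55 lower without Chd5-/- replicate 2 and 0.40 lower without +/+ replicate 2 to 0.41 higher without +/+ replicate 1, so the place of the members' median among all rows rested on single samples.

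**Figure D3:**
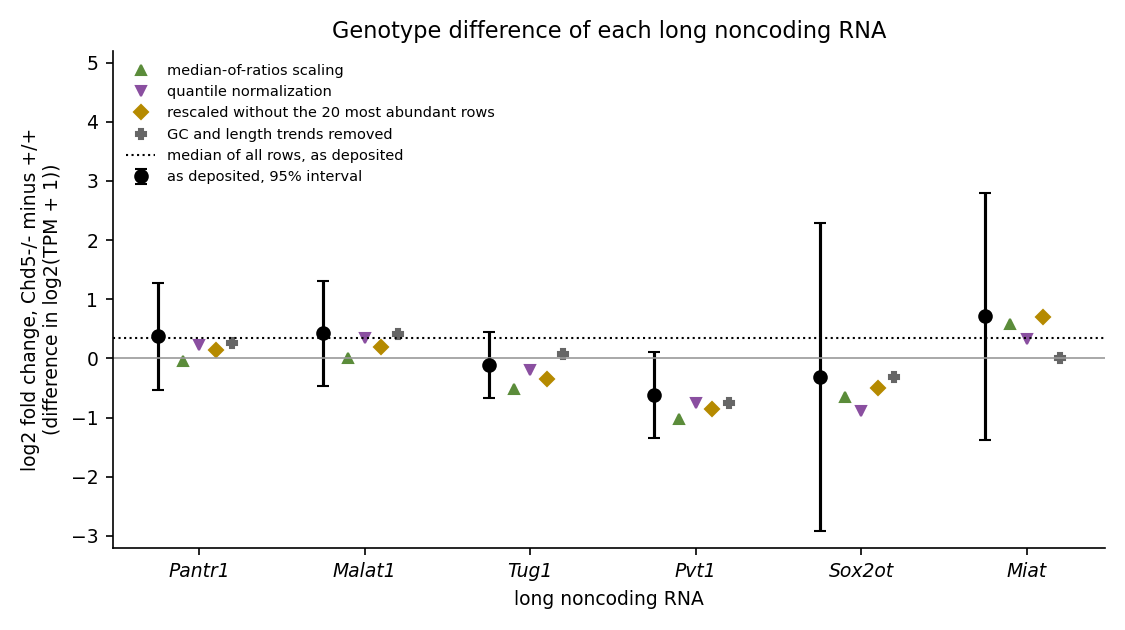
Log2 fold change (Chd5-/- minus +/+, difference in log2(TPM + 1)) of the 6 tested long noncoding RNAs on the deposited scale (black, with 95% interval, n = 2 each) and under 4 other scalings or corrections (coloured marks). Every interval includes 0, Pvt1 lies below 0 under each of the scalings, and the dotted line marks the median of all rows, 0.34.

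Base composition went with the genotype difference across the table, which touches members of unlike composition. Among rows whose longest annotated transcript had a G+C share within 1 percentage point of that of the member, the median log2 fold change was -0.24 for Tug1 (37.9% G+C), -0.11 for Malat1 (42.5%), 0.11 for Pvt1 (45.9%) and 0.79 for Miat (55.1%). The difference of 0.71 measured for Miat thus lay below the median of its 1076 neighbours in composition, and that of Pvt1, -0.61, below the median of its 1241. After removal of the trends with G+C share and length, Miat was at 0.02 and Tug1 at 0.07, while Malat1 (0.41) and Pvt1 (-0.76) were near or beyond their deposited values. The part of base composition in these values was not tested further.

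Chd5-/- replicate 2, the sample with the most Miat, was also the highest sample for 7 of the 8 oligodendrocyte lineage markers tested, all but Olig2. The full order of Miat was found for 1 of these markers. Pdgfra, the receptor that marks these precursors, was at 13.0 and 1.84 TPM in +/+ and at 2.98 and 22.8 TPM in Chd5-/- samples. Sox10, a transcription factor of the same lineage, was at 6.04 and 1.46 TPM in +/+ and at 1.23 and 9.37 TPM in Chd5-/- samples. The order of the samples was the same for Pdgfra as for Miat, Malat1 and Pantr1, an order shared by 5.14% of the rows tested, and Sox10 differed from it only in the 2 lowest samples. For Miat those 2, +/+ replicate 2 and Chd5-/- replicate 1, were at 0.06 and 0.08 TPM, near the floor, and cannot be ranked firmly. Of the 10 oligodendrocyte lineage markers 9 had a row, their sums were 607.5 and 682.5 TPM in +/+ and 552 and 1224 TPM in Chd5-/- samples, and 1 of the 9, Pdgfra, had this order. Mag, a marker of myelinating cells, was at 0 to 0.14 TPM. Of the 12 neural stem cell markers 1, Msi1, also had this order. A peak in Chd5-/- replicate 2 was not particular to this lineage. That sample also held the highest sums of neuron markers (811 TPM) and astrocyte markers (1430 TPM). The neuron sum there was mostly Map2 (785 TPM), and 2 of the 6 neuron markers tested were highest in that sample. Among the astrocyte markers, Aqp4, Slc1a2, Gja1, Aldoc and Gfap were highest there, and S100b and Aldh1l1 were not. The share of all rows highest in that sample was not counted. In bulk samples, a smaller number of cells of a type and less RNA per cell cannot be told apart.

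The neuron markers, as a list, were not ordered over the samples as Sox2ot was. Of the 6 that were tested, 2 were highest in +/+ replicate 1, the sample with the most Sox2ot, and 2 in Chd5-/- replicate 2. Gad1, an enzyme of GABA synthesis, was highest in Chd5-/- replicate 1 at 57.2 TPM, and Map2 in Chd5-/- replicate 2 at 785 TPM. Dcx, a marker of young neurons, was the 1 with the full order of Sox2ot. It was at 2.37 and 0.28 TPM in +/+ and at 0.48 and 1.12 TPM in Chd5-/- samples, highest and lowest in the same +/+ samples as Sox2ot. This order was shared by 0.978% of the rows tested (123 rows) and by 1 of 13 neuron markers with a row. The sums of the neuron markers were 548 and 533 TPM in +/+ and 436 and 811 TPM in Chd5-/- samples. Map2 made up most of that sum in every sample (503 and 516 TPM in +/+, 366 and 785 TPM in Chd5-/-). The sums of the 7 astrocyte markers were 878 and 1189 TPM against 536 and 1430 TPM. Neither sum followed Sox2ot. Sox2, which lies within Sox2ot on the same strand, was at 439 and 442 TPM in +/+, level where Sox2ot differed 13.0-fold. The part of neurons or of oligodendrocyte lineage cells in the levels of Sox2ot and Miat was not tested.

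**Figure D4:**
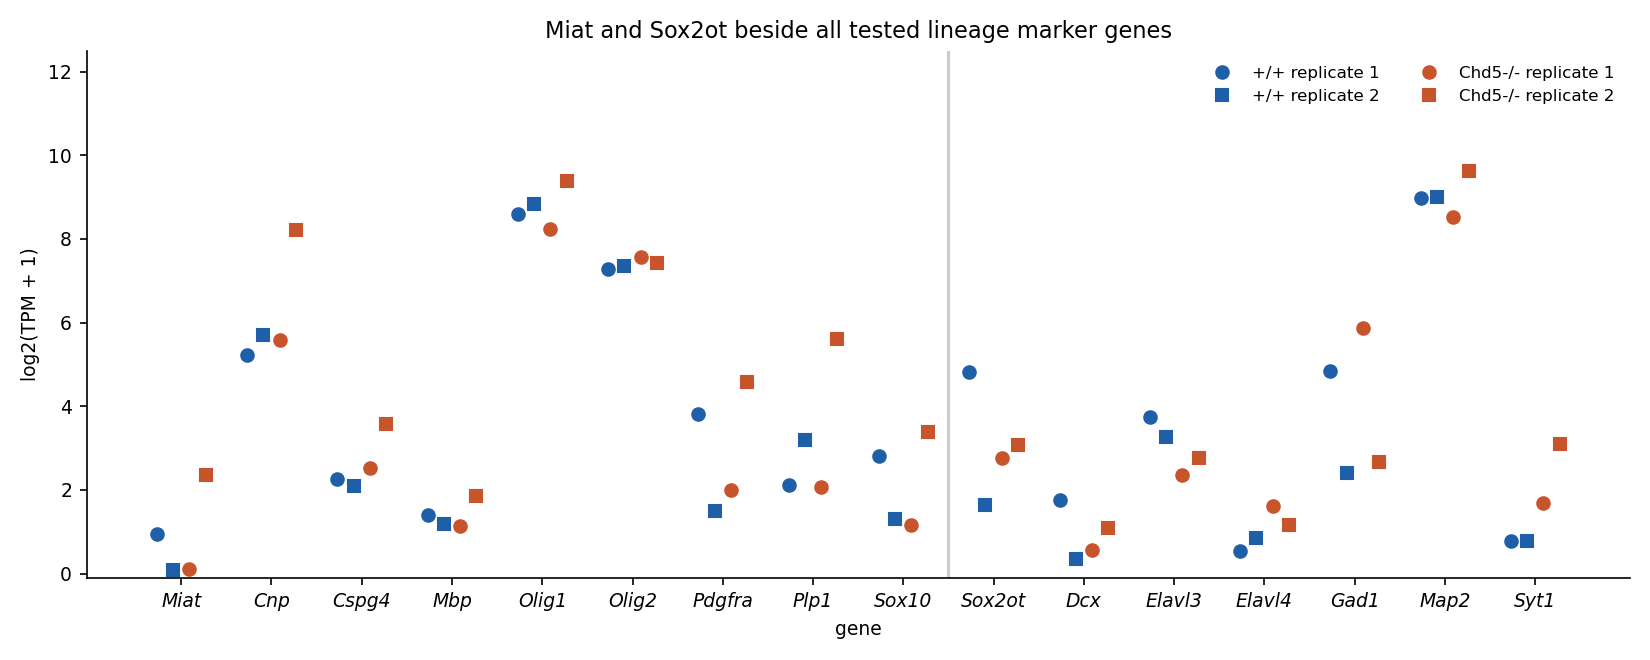
Level, as log2(TPM + 1), of Miat beside the 8 tested oligodendrocyte lineage markers (left of the line) and of Sox2ot beside the 6 tested neuron markers (right), in the 4 samples. Chd5-/- replicate 2 is the highest sample for Miat and for 7 of the 8 markers on the left, and +/+ replicate 1 for Sox2ot and for 2 of the 6 on the right.

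The genes most like each member over the 4 samples were taken as the 2 rows, among those with a mean of at least 10 TPM, whose centred log2(TPM + 1) stayed nearest in the sample of largest deviation. For Malat1 they were 2810001G20Rik and Spc24, a kinetochore subunit (largest deviation 0.07 and 0.09), and for Pantr1 they were Zbed6 and Hmgb2, a chromatin protein of dividing cells (0.07 and 0.09). Tug1 was nearest to Rapgef6 and D6Wsu163e (0.02 and 0.03), and Pvt1 to Timm9, a mitochondrial import chaperone, and Nol7, a nucleolar protein (0.06 and 0.08). Nol7 was at 98.5 and 97.2 TPM in +/+ and at 82.9 and 51.0 TPM in Chd5-/- samples, the descent seen for Pvt1. Miat was followed by Gpr19 and by Slc6a11, a GABA transporter (0.17 and 0.19). No gene came as near to Sox2ot, whose closest rows were Adgrl2 and Meis2, a homeobox factor (0.59 and 0.85). With 4 samples and 8198 or more rows searched, close matches arise readily, and likeness is given as a description.

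No protein-coding neighbour of a member passed the test. Of 16 neighbours named, 14 rows were tested: 0 passed the limma test at an adjusted p under 0.05, 4 were higher and 0 lower at an unadjusted p, and the median log2 fold change was 0.21. Both Chd5-/- samples lay above both +/+ samples in 7 of the 14, below in 3, and 4 overlapped. Over all rows 46.3% were above and 13.0% below, and 21.9% were higher at an unadjusted p, with a median of 0.34, so these counts are near the background. Beside Malat1, Ltbp3, a binding protein of latent TGF-beta, had a log2 fold change of 1.12, Frmd8 0.43 and the carrier Slc25a45 -0.77 (adjusted p = 0.159, 0.339 and 0.280). After removal of the G+C and length trends these 3 were at 0.25, -0.38 and -1.50.

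Pou3f3, a POU transcription factor of neural precursors, begins 0.925 kb from Pantr1 on the other strand. It was at 85.5 and 62.7 TPM in +/+ and at 68.0 and 71.6 TPM in Chd5-/- samples (log2 fold change -0.07, adjusted p = 0.882), with the same pair of +/+ samples apart in the same direction as Pantr1. Mrps9, a mitochondrial ribosomal protein gene 156 kb away, had a log2 fold change of 0.15 on the deposited scale, with a negative value under 3 other scalings. Myc, 47.6 kb from Pvt1 on the same strand, was at 22.2 and 17.3 TPM in +/+ and at 24.7 and 16.6 TPM in Chd5-/- samples. The Myc samples overlapped, with a log2 fold change of 0.05 (95% interval -0.73 to 0.82, adjusted p = 0.940) against -0.61 for Pvt1, and the sign for Myc was negative under 4 other scalings or corrections.

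Morc2a overlaps Tug1 on the other strand and was at 26.1 and 18.7 TPM in +/+ and at 29.3 and 29.5 TPM in Chd5-/- samples (log2 fold change 0.40, adjusted p = 0.401, -0.01 after median-of-ratios scaling). Further from Tug1, Smtn, a smooth muscle protein, was at 0.53 and 0.20 against 4.80 and 2.29 TPM (1.69, adjusted p = 0.129, and 0.67 after removal of the G+C and length trends). Selm, a selenoprotein gene, was at 1.52 and 1.75 against 7.53 and 7.93 TPM (1.73, adjusted p = 0.120). Smtn was at 1.28 without Chd5-/- replicate 1 (adjusted p = 0.0502) and at 2.10 without Chd5-/- replicate 2 (adjusted p = 0.0216). Selm was at 1.76 and 1.70 in the same fits (adjusted p = 0.0425 and 0.0429). These fits rest on 1 Chd5-/- sample each and called 1247 and 1086 rows in all. For the other neighbours the log2 fold changes were -0.58 for Sox2 (adjusted p = 0.416), -0.14 for Atp11b, 0.27 for Tpst2, 1.22 for Tfip11 (adjusted p = 0.143) and -0.19 for Nedd1, 520 kb from Rmst. With the G+C and length trends removed they were -1.06 for Sox2, -0.01 for Atp11b, -0.77 for Tpst2, 0.33 for Tfip11 and -0.09 for Nedd1. The Sox2 difference rested on Chd5-/- replicate 1, the sample with the high mesenchymal sum, at 201 TPM against 432 TPM in the other Chd5-/- sample: it was -0.03 without that sample (adjusted p = 0.938) and -1.13 without Chd5-/- replicate 2 (adjusted p = 0.0311). Both Chd5-/- samples were below both +/+ samples for Slc25a45, Sox2 and Nedd1.

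**Figure D5:**
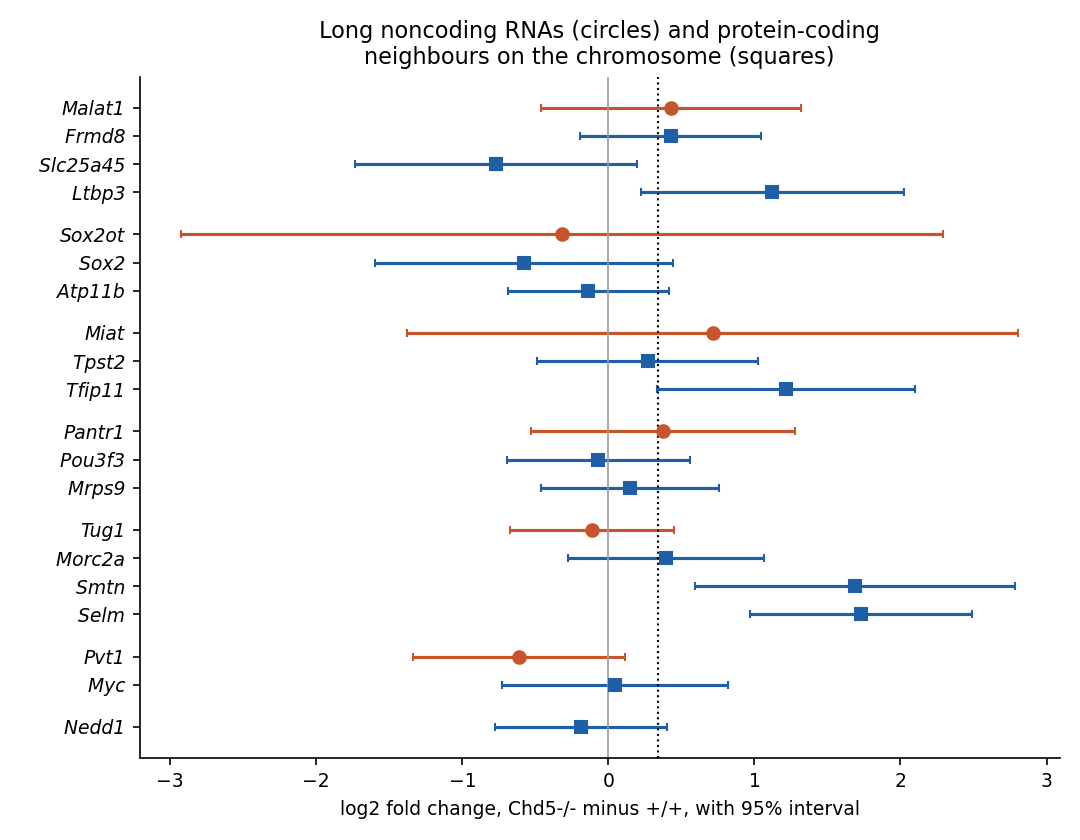
Log2 fold change (Chd5-/- minus +/+) with its 95% interval (n = 2 each) for the tested long noncoding RNAs (red circles) and the protein-coding genes near each of them (blue squares), grouped by locus. Smtn and Selm lie at 1.69 and 1.73 beside Tug1 (-0.11), and the dotted line is the median of all rows, 0.34.

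None of the proteins listed as working with these RNAs passed the test at an adjusted p. Of the 22 rows of paraspeckle proteins, which hold the RNA-binding proteins that gather on Neat1, 0 passed at an adjusted or at an unadjusted p under 0.05, and the median log2 fold change was 0.12. The extremes were Hnrnpa1 (0.76, adjusted p = 0.222) and Pspc1, a core paraspeckle protein (-0.59, adjusted p = 0.225). Of the 21 rows of nuclear speckle proteins, among which Malat1 lies, 0 passed at an adjusted p, 6 were higher at an unadjusted p (21.9% of all rows were), and the median was -0.04 beside 0.34 over all rows. U2af2, a 3′ splice site factor, had 1.199 (adjusted p = 0.122, and 1.32 without Chd5-/- replicate 1), and Srsf1 had -0.52 (adjusted p = 0.254). After removal of the G+C and length trends, U2af2 was at 0.48 and Srsf1 at -0.41. Of 12 tested rows of the proteins that cut, cap or bind the 3′ end of Malat1, 0 passed at an adjusted p and 3 were higher at an unadjusted p, near the 21.9% of all rows, with a median of 0.27. They ran from Mettl16, which binds the Malat1 triple helix (-0.50, adjusted p = 0.344), to the RNase P subunit Pop7 (1.16, adjusted p = 0.161), and Elac2, the enzyme that trims the tRNA-like end, was at 0.71 (adjusted p = 0.205). With the G+C and length trends removed, Mettl16 was at -0.67 and Pop7 at 0.21. Among 7 tested partners of the neural members the median was -0.14, 0 passed at either p, and the range went from Sox2 (-0.58) to the splicing repressor Ptbp1 (0.58, -0.10 after removal of G+C and length trends).

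Other long noncoding RNAs were read beside the members. Of 53 further names 28 had a row and 17 were tested: 0 passed at an adjusted p under 0.05, 4 were higher and 1 lower at an unadjusted p, and the median was 0.39. Over all rows 21.9% were higher and 2.27% lower, with a median of 0.34. H19, an imprinted RNA of growing tissue, was at 0.83 and 1.54 TPM in +/+ and at 40.4 and 6.07 TPM in Chd5-/- samples (log2 fold change 2.99, adjusted p = 0.143). The higher of the Chd5-/- values was in the sample with the high mesenchymal sum. The log2 fold change of H19 was 1.71 without that sample (limma adjusted p = 0.0469) and 4.26 without Chd5-/- replicate 2 (adjusted p = 0.00841), in fits that rest on 1 Chd5-/- sample and called 1247 and 1086 rows in all. That sum was mostly Thy1, and whether mesenchymal cells were present or had a part in the level of H19 was not tested. Emx2os, antisense to the forebrain gene Emx2, was at 3.38 and 1.48 against 0.29 and 0.04 TPM (-1.51, adjusted p = 0.147). The Norad transcript 2900097C17Rik, named after its values were seen, was as abundant as Pantr1 (296 and 348 TPM against 352 and 289 TPM) and had a log2 fold change of -0.01. Pantr2, the partner transcript at the Pou3f3 locus, was at 7.59 and 5.37 against 7.95 and 4.96 TPM (-0.02), well below Pantr1.

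RNAs that lack a poly(A) tail bear on how strictly the libraries held polyadenylated RNA. Of 15 such names only 3 had a row. Rn45s, named for a ribosomal RNA precursor, was at 452 and 332 TPM in +/+ and at 751 and 908 TPM in Chd5-/- samples. Its log2 fold change was 1.09 (limma adjusted p = 0.128), and 1.23 without Chd5-/- replicate 1. In total RNA the paper reported the precursor lower and a mature ribosomal RNA higher in Chd5-/- NSCs. Whether the Rn45s row tells these apart was not tested, so it is not read as the precursor level. Rmrp and Rpph1 were listed at 0 in 3 of 4 samples and at 0.81 and 0.57 TPM in 1 Chd5-/- sample each. The 15 rows of replication-dependent histones, whose mRNAs end in a stem loop, summed to 139 and 142 TPM in +/+ and to 180 and 531 TPM in Chd5-/- samples. Of these rows 7 were tested, with 2 higher at an unadjusted p, where 21.9% of all rows were. In Chd5-/- replicate 2, Hist1h2bc (274 TPM) and Hist1h1c (217 TPM) made up most of the sum. Whether the transcripts of these genes lacked a poly(A) tail here was not tested, so the sum is no measure of RNA without a tail. Within each genotype, Rn45s and Malat1 were higher in the same replicate in +/+ (replicate 1) and in Chd5-/- (replicate 2). The histone sum was near even in +/+, where one gene, Hist1h2bc, made up 113.5 and 125 TPM of it, and was higher in Chd5-/- replicate 2, as Malat1 was. The part of carried-over RNA without a tail in the level of Malat1 was not tested.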

How the data were processed

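Primary NSCs of +/+ and Chd5-/- mice (n = 2 each) were profiled by stranded mRNA sequencing. The deposited values are TPM per gene, made by the authors; the submitters' processing notes name Bowtie2 2.2.3, RSEM 1.2.20 and build mm10 (GRCm38). The annotation and the use of strand in counting are not given in the sources used here. Depth is unknown, since TPM keeps none.

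Rows were matched to the members by gene name. Groups and replicate numbers came from the labels. TPM was analysed as log2(TPM + 1) for the 12576 of 18169 rows that averaged 1 TPM or more, with limma 3.58.1 in R 4.3.3 (lmFit, eBayes with trend, two-sided, no covariate) and Benjamini-Hochberg adjustment over all rows tested; calls were made at an adjusted p under 0.05. The test was tested on simulated data with 2 samples against 2. It called 47 of 50 rows with an absolute log2 change of 8 and 43 of 50 with 4. With a change of 2 it called 7 of 50, and with 1 it called 0 of 50. Fold changes on this scale understate those of low genes. The members and lists were chosen with earlier results of these data known. 1 gene is not reported here. Lists were described by counts and medians. Named genes were the members, the 2 rows most like each, Chd5, the neighbours, the highest and lowest row of each list of long noncoding RNAs or RNA-binding proteins, and markers where a result turned on them; Frmd8, Elac2, Pantr2, 2900097C17Rik and the other genes named as examples were added after their values were seen. Coordinates, G+C share and sequences are from the GRCm38 reference (GENCODE, with its RefSeq links), which may differ from the annotation of the authors; 93.0% of tested rows had a G+C share and length. Motifs were searched on the transcript strand only. Alternatives were other pseudocounts, minimums, scalings, variance models, a replicate block and leaving out each sample; 1 alternative, a block with crossed numbers, was chosen after seeing the data. Figures were drawn with matplotlib 3.10.9.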

Additional observations from a re-analysis of the deposited data

How the results depend on the processing

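Across all rows, the 7 calls at an adjusted p under 0.05 became 4 with a pseudocount of 0.1 TPM, 0 without a minimum, 1 after quantile normalization, 3 after removal of G+C and length trends, and 0 to 1247 when 1 sample was left out. The 3033 calls at an unadjusted p became 1758 with a minimum of 10 TPM, 1329 after removal of the trends, and 804 to 4436 when 1 sample was left out. For the members, adjusted calls stayed at 0 except without Chd5-/- replicate 1 (range 0 to 1, Pvt1). Unadjusted calls, 0 on the deposited scale, were 2 with median-of-ratios scaling (Pvt1 and Tug1), 1 when rescaled without the 20 most abundant rows (Pvt1), 1 after removal of the trends (Pvt1), and 0 to 2 when 1 sample was left out (Sox2ot without +/+ replicate 2, Miat and Pvt1 without Chd5-/- replicate 1). The members' median of 0.13 became -0.11 with a minimum of 10 TPM, where Miat drops out, -0.28 with median-of-ratios scaling, -0.10 when rescaled, and -0.22 to 0.82 when 1 sample was left out.

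The replicate numbers are shared by the genotypes, but the difference between replicate 1 and 2 in +/+ and that in Chd5-/- had a correlation of -0.15 across rows, so nothing shows that they pair the samples. With a replicate block 0 rows were called at an adjusted p and 2289 at an unadjusted p, with 0 members at either. A block with the numbers crossed, chosen after seeing the data, called 5 and 3092 rows and 0 members.

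Signs reversed as follows, and the cause was not tested beyond the construction of each alternative. With 1 sample left out, the log2 fold change of Malat1 ranged from -0.024 (without +/+ replicate 2) to 0.88, of Pantr1 from -0.016 (without +/+ replicate 2) to 0.76, of Miat from -0.41 (without Chd5-/- replicate 2) to 1.84, of Sox2ot from -1.91 to 1.28 (without +/+ replicate 1) and of Tug1 from -0.25 to 0.033 (without +/+ replicate 1). Among the neighbours, Pou3f3 ranged from -0.29 to 0.15 (without +/+ replicate 1), Mrps9 from -0.041 (without Chd5-/- replicate 1) to 0.33 and Myc from -0.23 (without Chd5-/- replicate 1; -0.13 without +/+ replicate 2) to 0.32. With median-of-ratios scaling, Pantr1 was at -0.043, Mrps9 at -0.26, Morc2a at -0.0052, Myc at -0.35 and Tpst2 at -0.081. With quantile normalization, Mrps9 was at -0.074, Myc at -0.34 and Tpst2 at -0.38. When rescaled without the 20 most abundant rows, Mrps9 was at -0.087 and Myc at -0.18. After removal of the trends, Tug1 was at 0.069, Frmd8 at -0.38, Myc at -0.64, Tpst2 at -0.77 and Ptbp1 at -0.10. The adjusted p of the members other than Pvt1 lay between 0.0516 (Miat) and 0.996 over the alternatives. With 2 samples a group and no depth, genotype differences that lie within a member's 95% interval could not be told apart. Where leaving out a sample left 1 in a group, that sample was assumed to vary like the other group.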

Other observations

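Among long noncoding RNAs outside the 7 members, C130071C03Rik was at 44.4 and 29.9 TPM in +/+ and at 36.2 and 89.6 TPM in Chd5-/- samples, with the groups overlapping (log2 fold change 0.63, limma adjusted p = 0.454). Firre was at 19.2 and 17.2 TPM against 17.2 and 23.9 TPM (0.15, adjusted p = 0.751). Crnde was at 1.92 and 5.50 TPM against 11.5 and 12.7 TPM, without overlap (1.58, adjusted p = 0.143). The Cyrano transcript 1700020I14Rik was at 105 and 106 TPM against 91.3 and 88.6 TPM, also without overlap and in the other direction (-0.22, adjusted p = 0.526). Meg3 and Rian, imprinted RNAs, were at or below 0.84 TPM in every sample. These genes were named after their values were seen.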
